A study of Arabidopsis thaliana with 12 samples.

Results

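LTI30 (AT3G50970), COR47 (AT1G20440), COR15A (AT2G42540) and COR15B (AT2G42530) encode dehydrins and related protective proteins of Arabidopsis thaliana. They were chosen by name and locus, with earlier results of these data known. Each was read by 1 probe set. They make up 4 of the 13356 genes that could be named and tested on the ATH1 arrays of this series. Transcripts were measured in leaves of soil-grown plants of the accession Col-0, 5 weeks old, on 12 arrays in 4 groups of 3. The first pair of groups was leaf 13 of unwounded plants and undamaged leaf 13 taken 1 h after 40% of leaf 8, at its apex, had been wounded with forceps. The other pair was the blade of leaf 8 with a platinum wire in its petiole and no current, and the blade of leaf 8 taken 1 h after a current of 40 µA had been passed into the petiole for 10 s. No group carried a mutation or a transgene, and the labels do not say whether an array holds 1 leaf or a pool. The spread behind each limma p-value is that between arrays of the same group, pooled over all 4 groups, and it could be technical. Scatter among the current arrays thus also enters the tests of wounding.

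Dehydrins are very hydrophilic proteins that stay unfolded in water and take up structure on membranes. They belong to the late embryogenesis abundant (LEA) proteins, which accumulate in drying seeds and in leaves exposed to cold, drought or abscisic acid. LTI30 and COR47 are dehydrins, LTI30 a basic one that binds membranes and COR47 an acidic one. COR15A and COR15B are close relatives of each other that lie side by side in the genome, and their products enter the chloroplast, where COR15A is known to protect membranes during freezing. In cold leaves such genes are switched on by the CBF (DREB1) transcription factors, which bind a short promoter element, while abscisic acid acts through another element and bZIP factors.

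Levels are log2 expression values as deposited. A mean stands with its SD over the 3 arrays of a group, and a change is a difference of log2 means with limma's standard error (SE) or 95% confidence interval. A gene was called when its limma p-value, adjusted over all 13356 genes, was under 0.05. Within a group, arrays correlated at r of 0.991 to 0.996. A listed gene is termed measured when the platform table paired a probe set with that gene alone. Probe sets paired with several genes or with none were left out, so genes not measured in this sense may still be on the array. The tissue matched its label: 4 of 4 measured photosynthesis genes of 20 fixed, LHCB4.1, LHCB4.2, RCA and PRK, lay between 11.7 and 13.0 on every array, near the highest deposited value of 13.3. The 1 measured seed marker of 12, the oleosin gene OLEO3, and 4 measured root markers of 16 lay between 1.93 and 3.74.

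Wounding of leaf 8 was followed by higher transcript levels of all 4 genes in the undamaged leaf 13. All 4 were called higher, where 5.81% of the tested genes were, and their median change was 0.86 against -0.03 over all genes. As the 4 genes were chosen with earlier results of these data known, this comparison with all genes is a description. LTI30 changed most, by 4.54-fold, and the other genes by 1.56-fold to 1.84-fold. For each gene, the 3 wounded arrays lay above the 3 unwounded arrays, a separation upwards that 10.6% of all genes showed. In bulk leaf RNA, more cells expressing a gene and more transcript per cell cannot be told apart.

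The LTI30 value was 5.48, 5.36 and 5.22 on unwounded replicates 1, 2 and 3, and 7.29, 7.54 and 7.79 on wounded replicates 1, 2 and 3. The lowest wounded array thus stood far above the highest unwounded one. LTI30 rose from 5.36 ± 0.13 to 7.54 ± 0.25, by 2.18 (95% confidence interval 1.76 to 2.60, n = 3, limma adjusted p = 1.99e-06), the 103rd largest change upwards of the 13356 tested. COR47 read 8.96, 9.12 and 9.03 on the unwounded arrays and 9.73, 9.83 and 10.07 on the wounded ones. The second dehydrin thus separated as clearly over a smaller distance, rising by 0.84 (interval 0.62 to 1.06, n = 3, limma adjusted p = 4.10e-05).

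The chloroplast protein gene COR15A read 10.29, 10.24 and 10.28 on the unwounded arrays and 11.13, 11.04 and 11.29 on the wounded arrays. The unwounded arrays were nearly equal, with an SD of 0.03, and the gene rose by 0.88 (interval 0.64 to 1.13, n = 3, limma adjusted p = 5.96e-05). Its neighbour COR15B read 9.62, 9.51 and 9.64 without wounding and 10.10, 10.10 and 10.50 with it, so that wounded replicate 3 stood apart from the other wounded arrays. COR15B rose by 0.64 (interval 0.28 to 1.01, n = 3, limma adjusted p = 0.0183). The call of COR15B was lost without wounded replicate 3 (change 0.51, limma adjusted p = 0.101) and without unwounded replicate 2 (0.60, limma adjusted p = 0.0734). Without unwounded replicate 1 or 3 it was kept close to the threshold (limma adjusted p = 0.0494 and 0.0443). The interval of LTI30 lay wholly above those of the other 3 genes.

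**Figure D1:**
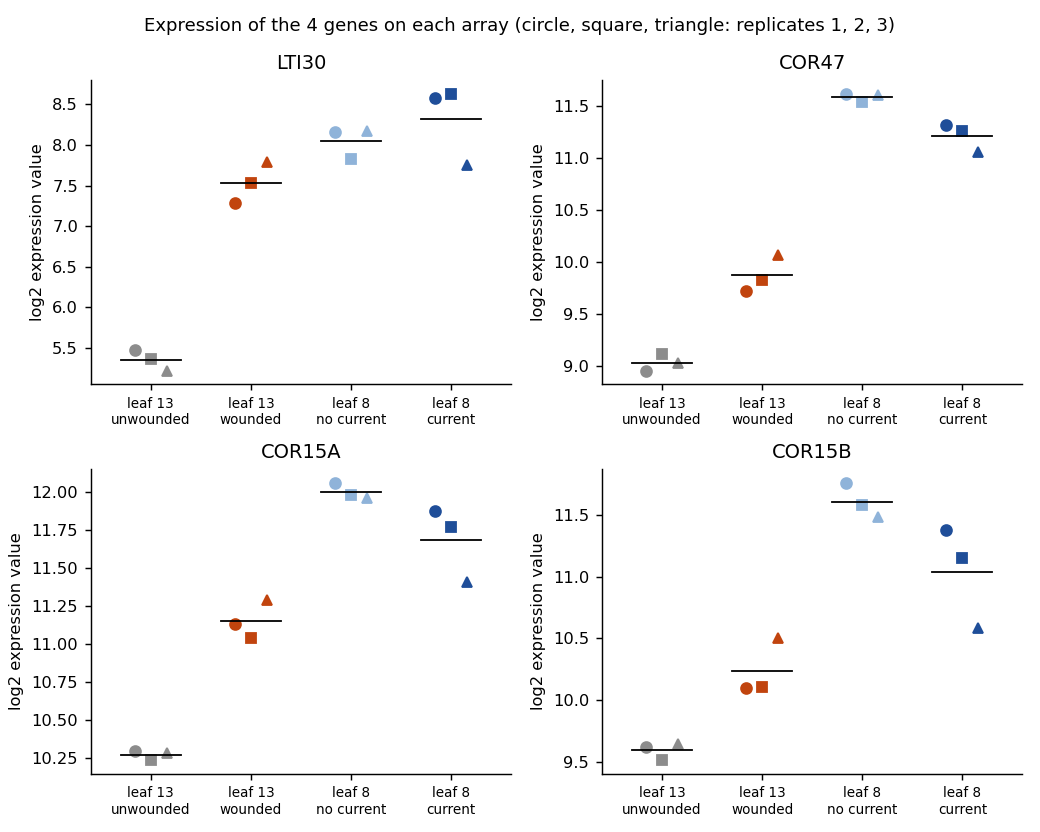
Log2 expression value (vertical axis) of LTI30, COR47, COR15A and COR15B on each of the 12 arrays, by group, with the symbol giving the replicate number and the black line the mean of 3 arrays. Each vertical axis has its own range; wounded arrays lie above unwounded ones for all 4 genes, and the wired leaf 8 arrays lie higher still, except that LTI30 on current replicate 3, at 7.76, falls just below wounded replicate 3, at 7.79.

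After current was passed into the petiole of leaf 8, no rise was measured for COR47, COR15A or COR15B. Averaged over all arrays, these genes lay above 99.3% to 99.8% of the tested genes, and how far so high a level limits a measured rise was not tested. Their values were lower on all 3 current arrays than on all 3 no-current arrays, a separation downwards that 9.59% of all genes showed, but none was called. Limma called 0 of the 4 genes in either direction, where it called 1.58% of all genes lower. The share of all genes called higher after current is not given here. At an unadjusted p under 0.05, 3 of the 4 were lower, as were 7.92% of all genes. The median change of the 4 genes was -0.35, against -0.02 over all genes.

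COR47 read 11.61, 11.54 and 11.61 without current and 11.31, 11.26 and 11.05 with it, a change of -0.38 (interval -0.60 to -0.15, limma adjusted p = 0.0595). COR15A read 12.06, 11.99 and 11.97 without current and 11.88, 11.77 and 11.41 with it, a change of -0.32 (interval -0.56 to -0.07, limma adjusted p = 0.176). In both genes current replicate 3 was the lowest of the 6 arrays. COR15B read 11.76, 11.58 and 11.48 without current and 11.38, 11.15 and 10.58 with it, a change of -0.57 (interval -0.93 to -0.21, limma adjusted p = 0.0838). LTI30 read 8.16, 7.83 and 8.17 without current and 8.58, 8.63 and 7.76 with it. Here the groups overlapped, because current replicates 1 and 2 were the highest of the 6 arrays and current replicate 3 the lowest. Its change of 0.27 had an interval from -0.15 to 0.69 (limma adjusted p = 0.645), which holds both no change and a rise of over 1.5-fold.

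Single arrays moved these values. With 1 array left out, the change of LTI30 ranged from 0.12 without current replicate 2 (limma adjusted p = 0.933) to 0.55 without current replicate 3 (limma adjusted p = 0.0542). It was 0.14 without current replicate 1 and 0.16 without no-current replicate 2. That of COR15A ranged from -0.41 without current replicate 1 (limma adjusted p = 0.0597) to -0.18 without current replicate 3. Without current replicate 3, COR15B was at -0.34. Without current replicate 1, COR15B at -0.74 (limma adjusted p = 0.0163) and COR47 at -0.43 (limma adjusted p = 0.0469) were called lower.

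The responses to wounding and to current differed for all 4 genes when the difference itself was tested. The change after current minus the change after wounding was -1.91 for LTI30 (interval -2.51 to -1.32, limma adjusted p = 0.00172) and -1.22 for COR47 (interval -1.54 to -0.90, limma adjusted p = 6.81e-04). For COR15A it was -1.20 (interval -1.55 to -0.85, limma adjusted p = 0.00108) and for COR15B -1.21 (interval -1.73 to -0.70, limma adjusted p = 0.0129). All 4 genes were thus called lower in this contrast, where 1.52% of all genes were, and they stayed called in each of the 19 alternatives run. The estimate was close to equal in COR47, COR15A and COR15B and larger in size in LTI30, whose interval overlapped theirs. Whether the difference itself varies between the genes was not tested. The 2 responses were measured in different leaves from different starting levels, and leaf position, wire and experiment cannot be told apart from the stimulus in this contrast.

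Among the 776 genes called higher after wounding, 284 (36.6%) were also called higher after current and 73 (9.41%) had a change below 0 after current. COR47, COR15A and COR15B were among these 73, which make up 0.547% of all tested genes. Of the 776, 195 (25.1%) were called lower in the difference of the responses, the 4 genes included. These counts were drawn up after the values of the 4 genes were known.

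**Figure D2:**
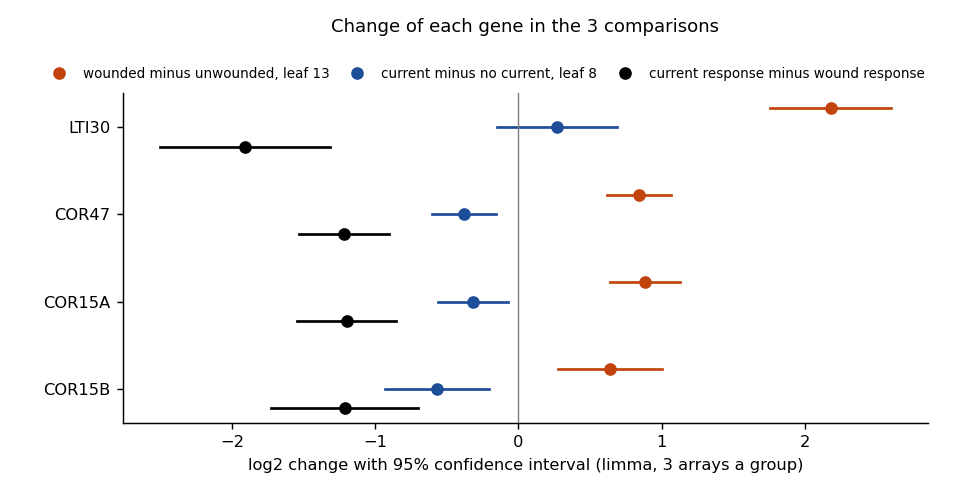
Log2 change (horizontal axis) of each gene after distal wounding, after current, and as the difference of both responses, with points for limma's estimates and lines for their 95% confidence intervals (3 arrays a group). All 4 wound intervals lie above 0 and all 4 difference intervals below it, while after current the interval of LTI30 spans 0, from -0.15 to 0.69.

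The level in the wired leaf 8 was above that of leaf 13 before any current. From unwounded leaf 13 to no-current leaf 8, LTI30 went from 5.36 to 8.05, COR47 from 9.04 ± 0.08 to 11.59 ± 0.04, COR15A from 10.27 ± 0.03 to between 11.97 and 12.06, and COR15B from 9.59 ± 0.07 to 11.61 ± 0.14. The differences were 2.70, 2.55, 1.73 and 2.02, against a median of -0.02 over all genes. They are given as a description without a test, since leaf position, the wire and the experiment differ together and cannot be told apart. Among all tested genes, the difference of LTI30 was the 22nd largest upwards and that of COR47 the 29th.

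The order of the groups was the same for COR47, COR15A and COR15B. No-current leaf 8 was highest, current leaf 8 next, then leaf 13 after wounding, with unwounded leaf 13 lowest. No neighbouring groups in that order overlapped. The share of all genes separated in this way between leaf 8 and wounded leaf 13 was not counted. Leaf position, wire, experiment and stimulus differ together in that step. In LTI30 the current leaves averaged 8.32 ± 0.49 and the no-current leaves 8.05 ± 0.19, and these groups overlapped. No-current leaves stood 0.51 above the wounded leaf 13 for LTI30, and their lowest array, 7.83, lay just above the highest wounded array, 7.79. The gap from the current leaves to the wounded leaf 13 was 1.33 for COR47, 0.80 for COR15B and 0.53 for COR15A. All wounded arrays of COR47, COR15A and COR15B thus lay below all arrays of the wired leaves, and for LTI30 the exception was current replicate 3.

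The 4 genes also moved together between arrays of 1 group. Wounded replicate 3 was the highest wounded array for 4 of the 4 genes, and current replicate 3 was the lowest current array for 4 of the 4. Averaged over the genes, wounded replicate 3 lay 0.21 above its group mean and current replicate 3 lay at -0.36, while no unwounded or no-current array deviated by more than 0.09. After removal of the group means, COR15A and COR15B correlated over the 12 arrays with r = 0.98, and the other pairs at r of 0.73 to 0.83. These correlations are descriptions, since the genes share arrays and group means were fitted to 3 arrays each. The share of all genes that were highest or lowest on the same arrays was not counted. Whether this joint movement is particular to the 4 genes was thus not tested.

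**Figure D3:**
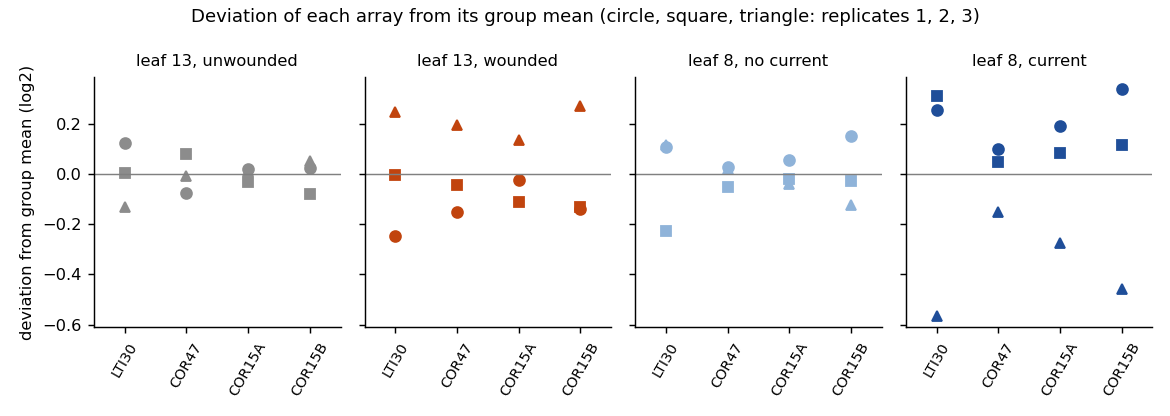
Deviation of each array from its group mean on the log2 scale (vertical axis) for the 4 genes, 1 panel a group, with the symbol giving the replicate number. The triangle of current replicate 3 is the lowest of its group for all 4 genes, by 0.57 below the mean in LTI30 at the most, and that of wounded replicate 3 is the highest of its group for all 4.

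The neighbours COR15A and COR15B were also compared within each array, since a shift common to both cancels there. The log2 ratio of COR15A to COR15B went from 0.68 ± 0.04 in unwounded to 0.92 ± 0.13 in wounded leaf 13, an increase of 0.24. In leaf 8 it went from 0.40 ± 0.09 without current to 0.65 ± 0.17 with it, an increase of 0.25. The treated arrays all lay above their controls in both comparisons, with an exact two-sided permutation p of 0.1 in each, the smallest that 3 against 3 arrays allow. With so few arrays this test cannot show a difference at a threshold of 0.05. The separate confidence intervals of the changes of both genes overlapped in each comparison. They leave out that both genes were read on the same arrays, so their overlap does not bear on the ratio. The ratio itself compares different probes and says nothing of which gene is more abundant.

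Few other genes of the same families could be set beside these. Of 8 other dehydrin genes fixed as a list, 4 were measured. Limma called 0 of them after wounding, after current or in the difference. At an unadjusted p under 0.05 the counts were 1, 1 and 0, the 1 being AT1G54410, which was lower both times. Lower at that threshold after current were 7.92% of all genes, and the share lower after wounding is not given here. Of all genes, limma called 5.81% higher after wounding, 1.58% lower after current and 1.52% lower in the difference. Shares called in the opposite directions are not given here. With the given shares this small, 0 of 4 does not set the list apart. AT1G54410, listed as HIRD11, an 11 kDa dehydrin, was at -0.28 (SE 0.10, limma adjusted p = 0.0705) after wounding and -0.26 (SE 0.10) after current. AT4G38410 lay between 2.71 and 3.24 on every array, low in the deposited range, and was at -0.14 (SE 0.11) and 0.07 (SE 0.11). The median change of the 4 was -0.04 after wounding and -0.10 after current, where all genes had -0.03 and -0.02.

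Of 19 other LEA genes, 12 were measured, of which 1 was called higher after wounding (8.33%, against 5.81% of all genes) and 0 lower. That gene was LEA4-5, which encodes a LEA protein of another group and is known to help plants tolerate water deficit. It read 3.92, 4.05 and 4.46 without wounding and 4.72, 4.74 and 5.24 with it, a rise of 0.76 (SE 0.17, limma adjusted p = 0.00642). All 3 wounded arrays lay above the unwounded ones, with replicate 3 highest in both groups. After current LEA4-5 was at -0.15 (SE 0.17), and the difference of its responses, -0.91 (SE 0.24), did not pass (limma adjusted p = 0.0653). Limma called 0 of the 12 after current and 0 in the difference, with 0 and 1 at an unadjusted p under 0.05. Of all genes, 1.58% were called lower after current and 1.52% lower in the difference, and the shares called higher are not given here. Before adjustment 7.92% and 5.42% were lower, so these counts do not set the list apart. DI21 was at 0.01 (SE 0.12) after wounding and -0.18 (SE 0.12) after current, and AT2G42560 at 0.16 (SE 0.14) and -0.14 (SE 0.14). The list's median was 0.03 after wounding and 0.04 after current.

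Among other genes fixed as cold-regulated, 3 of 15 were measured, COR27, AT4G33980 and AT4G30650. After wounding limma called 0 of them, where it called 5.81% of all genes higher. At an unadjusted p under 0.05, 1 was higher, and the share of all genes at that threshold is not given here. After current it called 1 lower, where 1.58% of all genes were, and 0 higher, for which the share of all genes is not given here. It called 0 in the difference of the responses, though 3 of 3 were lower before adjustment (p under 0.05, as were 5.42% of all genes), and the median difference was -2.66. COR27, a gene regulated by cold and by the circadian clock, read 8.47, 8.35 and 8.24 without current and 8.23, 5.99 and 4.07 on current replicates 1, 2 and 3. Its current arrays were spread over more than 4 log2 units, with replicate 3 lowest, and the change of -2.26 (SE 0.64) was not called (limma adjusted p = 0.0699). AT4G33980 read 7.24, 7.11 and 7.27 without current and 6.48, 3.48 and 3.15 with it, and fell by 2.84 (SE 0.57, limma adjusted p = 0.0102). That call was lost when the comparison was fitted alone, with a robust trend or without current replicate 2 (limma adjusted p = 0.0930, 0.0844 and 0.0605). AT4G30650 read 10.39, 10.28 and 10.05 without current and 10.20, 9.82 and 8.98 with it (change -0.57, SE 0.21, limma adjusted p = 0.199).

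In leaf 13 COR27 lay between 2.52 and 3.21 and AT4G33980 between 2.09 and 2.47, wounded or not, so both were low there. COR27 was at 0.40 (SE 0.64) after wounding and AT4G33980 at 0.09 (SE 0.57). These SEs hold the wide spread of the current arrays, while no SD of either gene in leaf 13 exceeded 0.21, so their wound tests could detect little. All wounded arrays of COR27 lay above the unwounded ones, as for 10.6% of all genes. AT4G30650 was at 0.54 (SE 0.21, limma adjusted p = 0.125) after wounding. The clock gene GI, GIGANTEA, read 8.73, 8.18 and 8.37 without current and 8.16, 7.75 and 7.52 with it, a change of -0.62 (SE 0.17, limma adjusted p = 0.0549). In leaf 13 GI was at 0.06 (SE 0.17) after wounding. Current replicate 3 was therefore the lowest current array for COR27, AT4G33980, AT4G30650 and GI, as it was for LTI30, COR47, COR15A and COR15B. Replicate 1 was the highest for COR27, AT4G33980, AT4G30650, GI, COR47, COR15A and COR15B. The share of all genes with the same order of current arrays was not counted. GI and COR27 also differed between the control leaves, at 8.43 ± 0.28 in no-current leaf 8 against 7.21 ± 0.17 in unwounded leaf 13 for GI, and 8.35 ± 0.11 against 2.61 ± 0.10 for COR27. The part of clock state or harvest time in the levels of LTI30, COR47, COR15A and COR15B was not tested, and the labels give no harvest time of day.

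Of 23 regulators of cold and clock responses, GI and STZ were measured, so 2 in all, and none of the CBF genes was analysed here. STZ, a zinc finger repressor known to be induced by salt and cold, was called higher in both comparisons, by 3.83 (SE 0.26) after wounding and 1.11 (SE 0.26, limma adjusted p = 0.0278) after current, with a difference of -2.72 (SE 0.37, limma adjusted p = 0.00108). Its current call was lost with a robust trend, without any 1 no-current array and without current replicate 2 or 3 (limma adjusted p from 0.0612 to 0.153). Unlike COR47, COR15A and COR15B, STZ was thus higher on current arrays, from 6.66 to 7.64, than on no-current arrays, from 6.03 to 6.13. None of the 48 genes fixed for abscisic acid and dehydration was analysed here, so these data do not show whether that pathway moved.

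**Figure D4:**
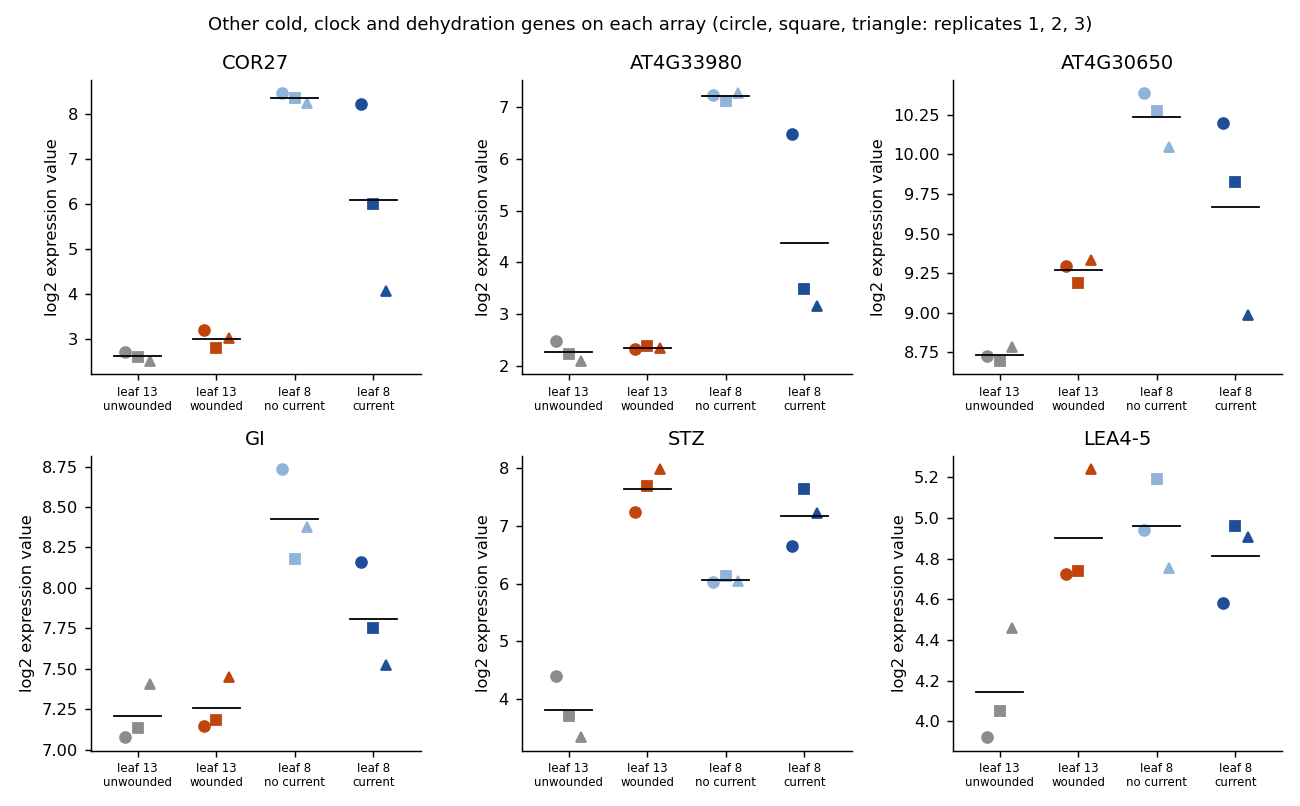
Log2 expression value (vertical axis) on each array of the cold-regulated genes COR27, AT4G33980 and AT4G30650, the clock gene GI, the repressor gene STZ and the LEA gene LEA4-5, by group, with black lines for the mean of 3 arrays and the symbol for the replicate number. COR27 spans 4.07 to 8.23 within the current group, and current replicate 3 is the lowest current array in the first 4 panels.

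Of the nearest protein-coding genes on either side, 2 could be tested beside the COR15 pair itself. AT1G20430 beside COR47 was at -0.04 (SE 0.13) after wounding and -0.12 (SE 0.13) after current. AT2G42520, on the other side of COR15B from COR15A, was at 0.07 (SE 0.09) and -0.06 (SE 0.09). Neither was called in limma (adjusted p = 0.919 and 0.734 after wounding, 0.795 and 0.871 after current). XERO1 and PLP3a beside LTI30, ERD10 beside COR47 and AT2G42550 beside COR15A were not analysed here.

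Over the 12 arrays, 85 of the other 13352 genes, 0.637%, correlated with the mean standardised profile of the 4 genes at r of 0.9 or more. The 5 most alike were AT1G16850 (r = 0.99), AT1G51090 and AT1G27200 (r = 0.97 and 0.96), AT1G11210 and AT2G25200 (both r = 0.96). The 12 arrays hold the step from leaf 13 to leaf 8 as well as both stimuli, and each r counts all of these. AT1G16850 went from 4.05 ± 0.19 in unwounded to 6.30 ± 0.36 in wounded leaf 13, and read 8.12 ± 0.03 in leaf 8 without current and 7.65 ± 0.62 with it. Its rise after wounding, 2.25 (SE 0.24), was close in size to that of LTI30, and current replicate 3 was again its lowest current array, at 7.00.

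These 5 genes had wound changes of 0.51 to 2.25 and differences between the responses of -2.72 to -0.75. Their changes after current ran from -0.68 to 0.05, and no-current leaf 8 stood 0.93 to 4.07 above unwounded leaf 13. As they were chosen for this profile, the values are a description. As for LTI30, arrays with and without current overlapped for 3 of the 5, AT1G16850, AT1G51090 and AT1G11210.

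**Figure D5:**
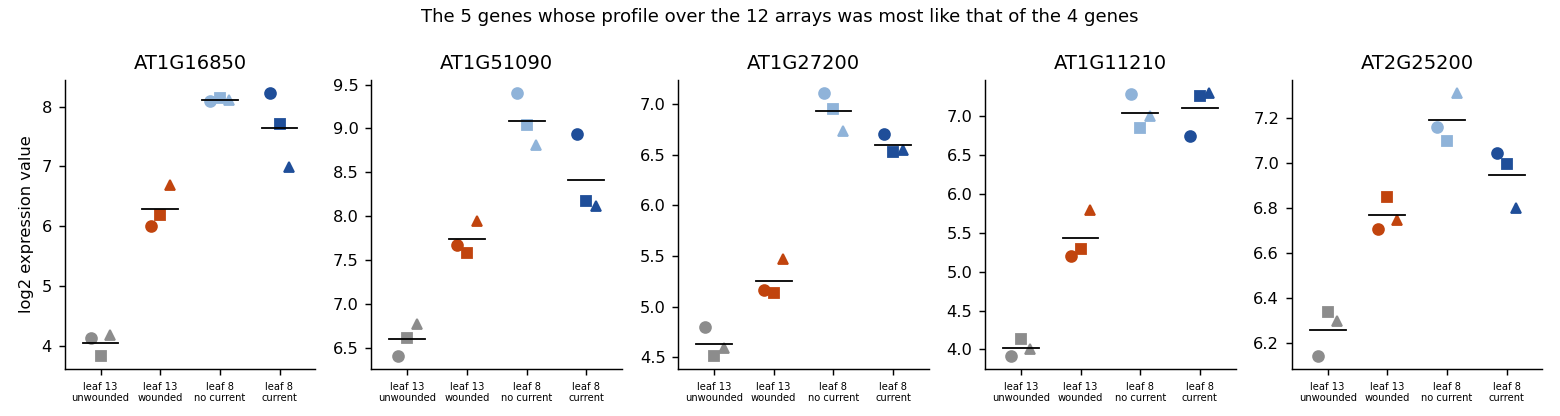
Log2 expression value (vertical axis) on each array of the 5 genes whose profile over 12 arrays correlated best with that of LTI30, COR47, COR15A and COR15B, by group, with black lines for the mean of 3 arrays. Each vertical axis has its own range. The mean of every gene is lowest in unwounded leaf 13 and higher in both leaf 8 groups than in leaf 13 after wounding, as for AT1G16850 at 8.12 and 7.65 against 6.30. Single arrays can overlap: AT2G25200 is at 6.80 on current replicate 3 and at 6.85 on wounded replicate 2.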

How the data were processed

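The submitters' processing notes name RMA and Affymetrix Power Tools for the log2 expression values that the authors deposited; the versions are not given in the sources used here. No label states the log base, and RMA values are log2 by construction. RMA subtracts background and equalises array distributions, so low levels are compressed and shifts common to most genes removed. Of 22810 probe sets, 64 were controls, 13513 were paired with 1 gene in the platform table, 503 with several and 8730 with none. Only the first were used, averaged per gene, and 13286 of 13356 genes matched RefSeq (TAIR10.1).

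Limma (3.58.1, R 4.3.3) fitted 1 mean per group over all 12 arrays, with 8 residual and 6.31 prior degrees of freedom, two-sided tests and Benjamini-Hochberg adjustment over all genes. It was tested on simulated data. Precision is limited by 3 arrays per group. The 4 genes, the gene lists and the tests were chosen with earlier results of these data known. Other genes were named by rule: from 5 lists (113 genes, 21 measured), up to 4 called and 2 uncalled, by size; nearest neighbours; and the 5 most like in profile. Alternatives were each comparison alone, quantile normalization, median centring, array weights, a robust trend, no dimmest 50% of genes, all 22746 probe sets, a replicate block and leaving out each array.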

Additional observations from a re-analysis of the deposited data

Results flagged for a closer look

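The responses to wounding and to current differed for all 4 genes by limma's test of the difference. The change after current minus that after wounding was -1.91 for LTI30, -1.22 for COR47, -1.20 for COR15A and -1.21 for COR15B. For COR47, COR15A and COR15B every wounded array lay above its controls and every current array below its own, while for LTI30 the current arrays overlapped their controls. Control levels were 1.73 to 2.70 higher in leaf 8 than in leaf 13, and the part of this starting level in the difference was not tested.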

How the results depend on the processing

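Of 188 values of the 4 genes under the alternatives, 182 kept their direction and their side of the threshold and 0 turned direction. After wounding, COR15B ranged from 0.51 to 0.71 with 1 array left out and lost its call in the 2 cases given above. After current, COR47 was called lower under the robust trend (-0.38, adjusted p = 0.0326 in limma) and without the dimmest 50% of genes (-0.38, adjusted p = 0.0429 in limma), where fewer genes were tested. So 1 of the 4 genes was called under each of these settings, in place of 0. The cause was tested for neither setting. With 1 array left out, COR47 ranged from -0.43 to -0.30, COR15B from -0.74 to -0.34, and 0 to 2 genes were called after current. With the replicate block, 4 genes were called after wounding, 0 after current and 4 in the difference, as without it, and LTI30 rose by 2.18 after wounding. Deviations of same-numbered arrays correlated with r from -0.07 to 0.04. These values show no pairing by replicate number, but they cannot exclude a small shared effect, and the labels do not say whether equal numbers belong together. Alternatives for the other named genes were chosen after seeing the data.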
